A study of Homo sapiens with 12 samples.

Results

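Expression of 10 genes of antigen processing and presentation was examined in Hs578T and BT-20, established cell lines of human breast cancer, on 12 HG-U133 Plus 2.0 arrays. The genes were B2M, HLA-E, PSMB8, PSMB9, TAP1, TAP2, CIITA, CD74, HLA-DRA and HLA-DPA1, chosen by name out of 19775 genes with a probe set of their own on the array. Each gene was read from the probe set that names it alone and has the highest mean over the 12 arrays. Cells of both lines received 200 nM of a DNA oligonucleotide with the liposomal reagent DOTAP for 24 h. In Hs578T and in BT-20 alike, 2 arrays (labelled set 1 and set 2) came from cells given CDH13 M, a methylated double strand from exon 1 of CDH13, and 2 arrays (again set 1 and set 2) from cells given CDH13 U, the same double strand without methylation. In each line 1 array came from cells given the single-stranded CpG oligonucleotide ODN2006 and 1 from cells given its GpC control. No array came from untreated cells or from cells given DOTAP alone. The level before transfection and a response to it therefore cannot be told apart in either line, nor in the differences between the lines. Hs578T is a mesenchymal-like and BT-20 an epithelial line. The labels call the CDH13 arrays biological replicates without saying what set 1 and set 2 stand for, so p-values measure the spread between these arrays.

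MHC class I molecules show peptides from inside the cell to cytotoxic T cells. The proteasome cuts proteins into peptides, the TAP transporter carries them into the endoplasmic reticulum, and there they bind a class I heavy chain paired with beta-2-microglobulin. In the immunoproteasome, inducible subunits replace the constitutive ones, and interferon gamma raises most genes of this route. MHC class II molecules show peptides from endosomes to helper T cells and are largely restricted to B cells, dendritic cells and macrophages, although many epithelial cells begin to express them after interferon gamma through the transactivator CIITA.

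The oligonucleotides are shown because they define the treatments. Capitals mark CpG dinucleotides. ODN2006 and the CDH13 U strand carry 4 CpG each, and the ODN2006 control carries 4 GpC in place of the CpG. CDH13 M has the sequence of CDH13 U with the cytosine methylated at bases 2, 7, 11 and 16 of the strand, and at bases 14, 19, 23 and 28 of the complementary one, counted from the 5′ end.
ODN2006: tCGtCGttttgtCGttttgtCGtt
ODN2006 control: tgctgcttttgtgcttttgtgctt
CDH13 U strand: tCGgatCGccCGgcaCGggcagggtgaggg
CDH13 U complementary strand: ccctcaccctgccCGtgcCGggCGatcCGa

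On these arrays the lines matched their labels. Of 10 epithelial markers, 3 were at 5 or above on the log2 scale in every Hs578T array, against all 10 in every BT-20 array. All 10 mesenchymal markers were at 5 or above in every Hs578T array, against 4 in every BT-20 array. Leukocyte markers, which include those of cells that normally carry MHC class II, were under 5 in every array of both lines (11 of 11, PTPRC and CD14 among them). The median of the list lay between 2.60 and 2.65 over the Hs578T arrays and between 2.61 and 2.68 over the BT-20 arrays. The share of all probe sets at 5 or above lay between 33.9% and 35.0% over the 12 arrays. The median over all probe sets was 3.01 to 3.09 in the arrays, and values under 5 are called dim.

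Of the 10 genes, 6 were above the dim limit in every array and could be tested, namely the class I route genes B2M, HLA-E, PSMB8, PSMB9, TAP1 and TAP2. The other 4, all of the class II route, were dim in every array, except HLA-DRA in 1 BT-20 array, and were not tested (a gene had to reach 5 in 2 arrays). TAP1 and PSMB9 were higher and PSMB8 was lower in Hs578T than in BT-20, whereas none of the 6 passed the threshold between methylated and unmethylated CDH13 or between ODN2006 and its control.

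TAP1, a subunit of the peptide transporter, measured 9.44 and 9.26 in the CDH13 M arrays of Hs578T (set 1, then set 2), 9.56 and 9.01 in its CDH13 U arrays, 9.09 with ODN2006 and 9.27 with the ODN2006 control. In BT-20, TAP1 measured 8.65 and 8.15 with CDH13 M, 8.44 and 7.98 with CDH13 U, 7.98 with ODN2006 and 7.80 with the ODN2006 control. The 6 Hs578T arrays all lay above the 6 BT-20 arrays. RNA came from whole cultures, so fewer expressing cells and less RNA per cell cannot be told apart. Over the CDH13 arrays (n = 4 a line) the change was 1.01 on the log2 scale (SE 0.19), or 2.02-fold, with an adjusted p of 0.0025 in limma. Between arrays with the same oligonucleotide and set label, Hs578T was higher by 0.79 to 1.47. The sign follows from the ranges, which do not overlap, and the labels do not pair arrays across the lines.

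PSMB9, a catalytic subunit of the immunoproteasome (LMP2), measured 9.33 and 9.41 with CDH13 M, 9.44 and 9.73 with CDH13 U, 9.34 with ODN2006 and 9.50 with its control in Hs578T. In BT-20 the values were 8.16 and 8.57 with CDH13 M, 8.67 and 8.75 with CDH13 U, 8.58 with ODN2006 and 8.60 with its control. Again no Hs578T array fell within the range of BT-20. The log2 change was 0.94 (SE 0.13), or 1.92-fold, with an adjusted p of 0.00048 in limma. Arrays with the same oligonucleotide and set label differed by 0.76 to 1.17.

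PSMB8, the immunoproteasome subunit LMP7, went the other way. It measured 9.34 and 9.12 with CDH13 M, 9.56 and 9.27 with CDH13 U, 9.06 with ODN2006 and 9.31 with its control in Hs578T. In BT-20 it measured 9.74 and 9.81 with CDH13 M, 9.92 and 10.13 with CDH13 U, 10.01 with ODN2006 and 10.01 with its control. All 6 Hs578T arrays were below all 6 BT-20 arrays, with a log2 change of -0.58 (SE 0.12) and an adjusted p of 0.0033 in limma, so that Hs578T held 0.669 of the BT-20 signal. Arrays with the same oligonucleotide and set label differed by -0.95 to -0.36.

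The other 3 tested genes did not pass the threshold between the lines. TAP2, the second transporter subunit, lay between 8.27 and 8.60 in Hs578T (median 8.45) and between 7.92 and 8.43 in BT-20 (median 8.11), with a log2 change of 0.15 (SE 0.13, adjusted p = 0.32 in limma). Over all 12 arrays TAP2 was called, with 0.34 (adjusted p = 0.027). B2M, the invariant light chain of class I, lay between 14.35 and 14.48 in Hs578T (median 14.40) and between 14.18 and 14.33 in BT-20 (median 14.27). Its ranges did not overlap, but the log2 change of 0.19 (SE 0.084) missed the threshold with an adjusted p of 0.078 in limma, and it passed when dim genes were kept in the fit (adjusted p = 0.010) and with trend and robust eBayes (adjusted p = 0.0078). Its other bright probe set gave 0.058 (SE 0.11, adjusted p = 0.65), with overlapping ranges. HLA-E, a class I heavy chain read by natural killer cells, lay between 10.46 and 10.90 in Hs578T (median 10.71) and between 10.69 and 10.86 in BT-20 (median 10.81), with a log2 change of -0.15 (SE 0.094, adjusted p = 0.18 in limma).

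Thus 3 of the 6 tested genes were called between the lines, 2 of them higher and 1 lower in Hs578T. Over all 10410 genes tested, 74.6% were called, 34.4% higher and 40.2% lower in Hs578T, so that the share of these genes called was not above that of the array as a whole. Their median log2 change was 0.17, against -0.086 over all genes tested. The calls depended on how the arrays were scaled. When each array was centred on its median housekeeping gene, which was TFRC in all 12 arrays, the median of all genes moved by -0.59. TFRC itself was higher in Hs578T by 0.59 (SE 0.12, adjusted p = 0.0029 in limma), so this setting takes that difference off every gene. TAP1 and PSMB9 then kept their direction but were no longer called (log2 change 0.42, adjusted p = 0.11, and 0.35, adjusted p = 0.10). PSMB8 (-1.17, adjusted p = 0.00038) stayed lower, HLA-E (-0.75, adjusted p = 0.0029) was called lower, and B2M (-0.40, adjusted p = 0.051) and TAP2 (-0.44, adjusted p = 0.045) turned negative. Centring on the median deviation of all 11 housekeeping genes, which moved the median of all genes by 0.10, changed none of these calls.

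**Figure D1:**
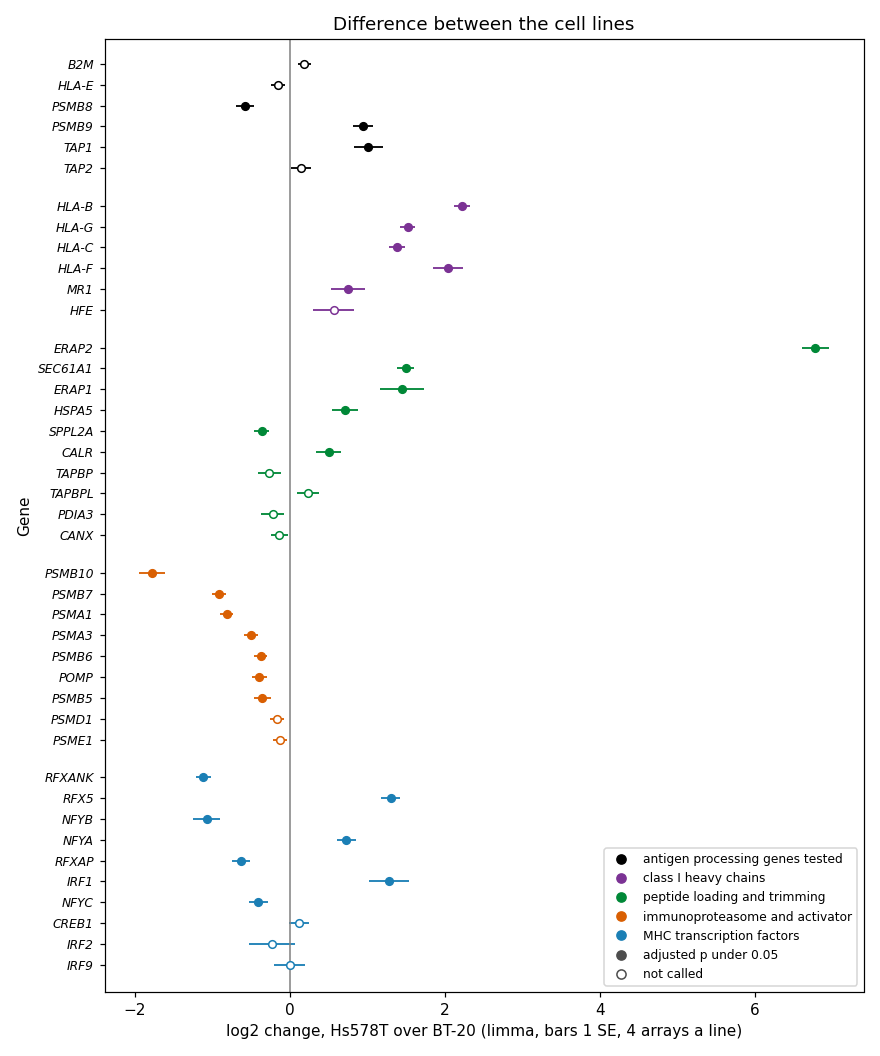
Log2 change of Hs578T over BT-20 (x axis, limma, bars 1 SE, 4 CDH13 arrays a line) for the antigen processing genes tested and for 4 related lists (y axis), with filled circles for adjusted p under 0.05. TAP1 and PSMB9 sit near 1 on the right and PSMB8 at -0.58 on the left, all 6 class I heavy chains lie on the right, and no proteasome gene of the related list lies to the right of 0.

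HLA-E was represented by 3 probe sets, which did not give the same direction between the lines. In the second probe set (of the at kind, specific to 1 gene by design) the gene measured 8.38 and 8.61 with CDH13 M, 8.85 and 8.87 with CDH13 U, 9.26 after ODN2006 and 9.46 after its control in Hs578T. In BT-20 that probe set read 8.37 and 8.45 with CDH13 M, 8.38 and 8.53 with CDH13 U, 8.84 with ODN2006 and 8.62 with the control. Its log2 change between the lines was 0.25 (SE 0.097, adjusted p = 0.053 in limma). The third probe set, of the x_at kind, gave 0.36 (SE 0.091, adjusted p = 0.0096), higher in Hs578T, whereas the chosen one, also x_at, gave -0.15. The suffix x_at marks probes that may bind transcripts of several genes, and HLA heavy chains are alike in sequence and differ between people, so the level of HLA-E between the lines is uncertain. TAP2 was uncertain in the same way: a second probe set at 5 or above in all arrays gave 0.072 (SE 0.094, adjusted p = 0.51), but the mean over its 4 probe sets, of which a dim one read 2.34 to 2.39 in Hs578T and 2.64 to 5.01 in BT-20, gave -0.40 (adjusted p = 0.020). TAP1, PSMB8 and PSMB9 had 1 probe set each.

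**Figure D2:**
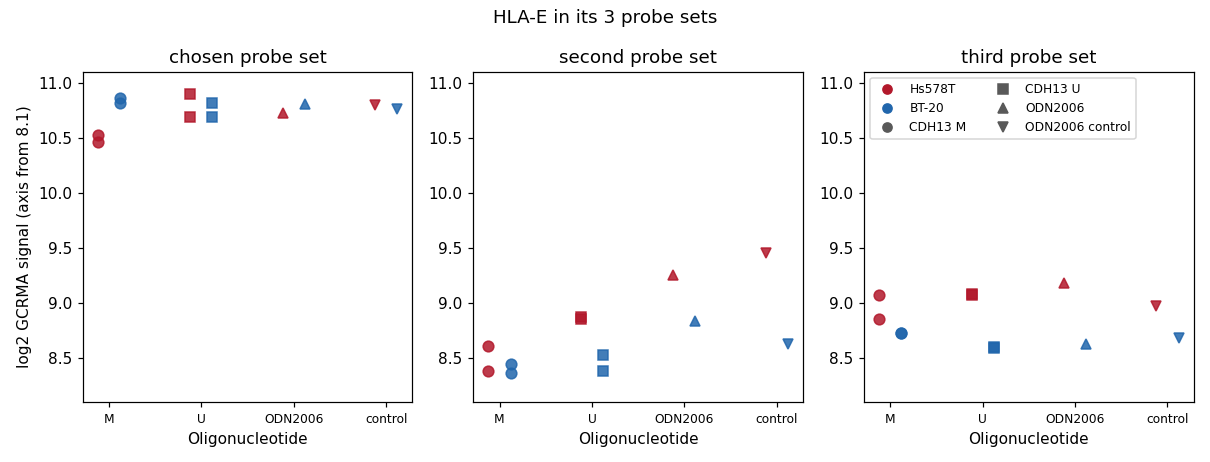
Log2 GCRMA signal (y axis, starting at 8.1) of HLA-E in its 3 probe sets (panels, the chosen one first, then the second and the third) by oligonucleotide (x axis), Hs578T in red and BT-20 in blue, 1 marker an array. The chosen probe set has the lowest 2 values in the CDH13 M arrays of Hs578T, at 10.46 and 10.53, while the second probe set reads highest in the Hs578T ODN2006 and control arrays, at 9.26 and 9.46.

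The genes of the peptide supply lie next to each other in the MHC class II region of chromosome 6. In RefSeq (GRCh38.p14), TAP2 spans chr6:32821831-32838739, PSMB8 chr6:32840717-32844679, TAP1 chr6:32845209-32853704 and PSMB9 chr6:32854192-32859851. TAP1 and PSMB9 are transcribed in opposite directions from starts 487 bases apart. The promoter windows of TAP1, PSMB9 and PSMB8, 250 bases before to 50 after the start, are shown because the 2 genes that start back to back were both higher in Hs578T and their neighbour PSMB8 was lower. Sequences are from RefSeq, 5′ to 3′ on the gene's strand, and capitals mark matches to the interferon-stimulated response element core GAAANNGAA or to the gamma-activated site TTCNNNGAA on either strand.
TAP1 promoter, chr6:32853655-32853954, minus strand: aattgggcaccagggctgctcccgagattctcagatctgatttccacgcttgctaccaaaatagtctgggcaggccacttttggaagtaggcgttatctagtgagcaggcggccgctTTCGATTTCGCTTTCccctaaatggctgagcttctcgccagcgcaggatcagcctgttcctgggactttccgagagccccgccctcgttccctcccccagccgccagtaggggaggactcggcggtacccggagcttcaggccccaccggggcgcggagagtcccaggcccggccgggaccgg
PSMB9 promoter, chr6:32853942-32854241, plus strand: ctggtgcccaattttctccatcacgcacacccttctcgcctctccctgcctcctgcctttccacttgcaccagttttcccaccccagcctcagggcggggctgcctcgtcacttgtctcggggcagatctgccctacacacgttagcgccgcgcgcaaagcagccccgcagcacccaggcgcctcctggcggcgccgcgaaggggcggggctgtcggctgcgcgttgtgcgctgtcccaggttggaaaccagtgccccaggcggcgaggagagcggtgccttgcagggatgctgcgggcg
PSMB8 promoter, chr6:32844630-32844929, minus strand: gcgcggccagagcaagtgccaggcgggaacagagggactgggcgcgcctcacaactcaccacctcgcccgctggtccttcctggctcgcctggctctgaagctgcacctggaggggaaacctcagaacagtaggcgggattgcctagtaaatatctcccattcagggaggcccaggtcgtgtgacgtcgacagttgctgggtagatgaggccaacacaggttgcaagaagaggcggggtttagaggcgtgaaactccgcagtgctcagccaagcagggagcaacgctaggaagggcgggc
PSMB8 promoter at a second start, chr6:32843998-32844297, minus strand: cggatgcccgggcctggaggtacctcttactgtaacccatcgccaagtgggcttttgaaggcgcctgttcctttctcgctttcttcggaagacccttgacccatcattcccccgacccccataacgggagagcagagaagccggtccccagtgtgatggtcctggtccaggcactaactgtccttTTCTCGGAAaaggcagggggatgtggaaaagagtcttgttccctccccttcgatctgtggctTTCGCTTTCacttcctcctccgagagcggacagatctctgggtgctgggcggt

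The TAP1 window held 2 response element cores that overlap each other, the nearer beginning 127 bases before the start. The PSMB9 window held neither motif. However, the TAP1 cores lie between the starts of TAP1 and PSMB9, so they are upstream of PSMB9 as well. They fall beyond the far end of the PSMB9 window, so the absence of the core there depends on where the window was cut. PSMB8 had neither motif at its outer start. At its second start it had a core that begins 3 bases before the start and runs past it. A gamma-activated site there begins 65 bases before the start. TAP1 had a gamma-activated site 189 bases before a second start, in a window not printed. Among the 7 of 10 genes with a promoter in the table, 6 had a window with the response element core (6 of 10 windows, against 8.11% of all 35116 promoters) and 2 had one with the gamma-activated site (2 of 10 windows, against 7.66%). B2M carried 2 overlapping cores, 144 and 138 bases before the start. A CCAAT box (CCAAT on either strand) was in 4 of the 10 windows, against 34.6% of all promoters, and in the TAP1 and PSMB9 windows, which overlap, it is the same stretch. The core TGACG of the cyclic AMP response element (either strand) was in 6 of 10 windows, against 24.6%. These are matches of letters and were not tested as binding sites.

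The class II route was dim. CIITA, the transactivator that switches class II genes on, lay between 2.62 and 2.66 in Hs578T and between 2.64 and 2.69 in BT-20, and over its 3 probe sets no value was above 2.69. CD74, the invariant chain that guards the class II groove, lay between 2.33 and 2.35 in Hs578T and between 2.33 and 2.37 in BT-20. HLA-DPA1, the alpha chain of HLA-DP, lay between 2.52 and 2.60 in Hs578T and between 2.58 and 2.64 in BT-20, apart from the BT-20 ODN2006 array at 3.14. At these values the arrays show no signal above the dim limit, and a low level of RNA cannot be told apart from none.

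HLA-DRA, the alpha chain of HLA-DR, was the exception within BT-20. It lay between 2.05 and 2.08 in all 6 Hs578T arrays. In BT-20 it read 2.11 with CDH13 M and 2.16 with CDH13 U in set 1, 3.75 with CDH13 M and 3.97 with CDH13 U in set 2, 5.18 with ODN2006 and 4.19 with the ODN2006 control. The second HLA-DRA probe set read 2.11, 2.11, 3.23, 2.68, 4.51 and 3.75 in the same BT-20 arrays, in the same order. In both probe sets the set 1 arrays of BT-20 lay just above the Hs578T arrays, and the other 4 BT-20 arrays lay further above, highest with ODN2006. Only 1 of the 12 values of the chosen probe set reached 5, so the gene was not tested. Without the filter on dim genes, the log2 change of ODN2006 over its control was 0.51 over both lines (SE 0.78, adjusted p = 0.88 in limma), that of Hs578T over BT-20 was -0.93 (SE 0.55, adjusted p = 0.28), and that of the ODN arrays over the CDH13 arrays of set 2 in BT-20 was 0.82 (SE 0.32, adjusted p = 1.00). Set 2 minus set 1 was 1.64 with CDH13 M and 1.82 with CDH13 U in BT-20, against 0.99 for ODN2006 minus its control. The part of the set in the HLA-DRA values was not tested.

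Other class II genes were read beside it, and the 3 named here were chosen after their values were seen. None of 8 further class II chains and editors reached 5 in any Hs578T array, and 6 of 8 stayed under 5 in every BT-20 array. HLA-DMA, part of the HLA-DM peptide editor, lay between 1.71 and 2.98 in Hs578T. In BT-20 it read 2.75 with CDH13 M and 4.04 with CDH13 U in set 1, 4.37 and 4.41 in set 2, 4.37 with ODN2006 and 5.21 with its control. HLA-DMB reached 5.02 in the set 1 CDH13 M array of BT-20 only. HLA-DRB1, the beta partner of HLA-DRA, lay between 2.14 and 2.16 in Hs578T and between 2.15 and 2.19 in BT-20, apart from a higher but still dim value with ODN2006. Its probe set is of the x_at kind, and HLA-DRB1 differs between people. Leukocyte markers stayed dim in all these arrays, as given above.

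**Figure D3:**
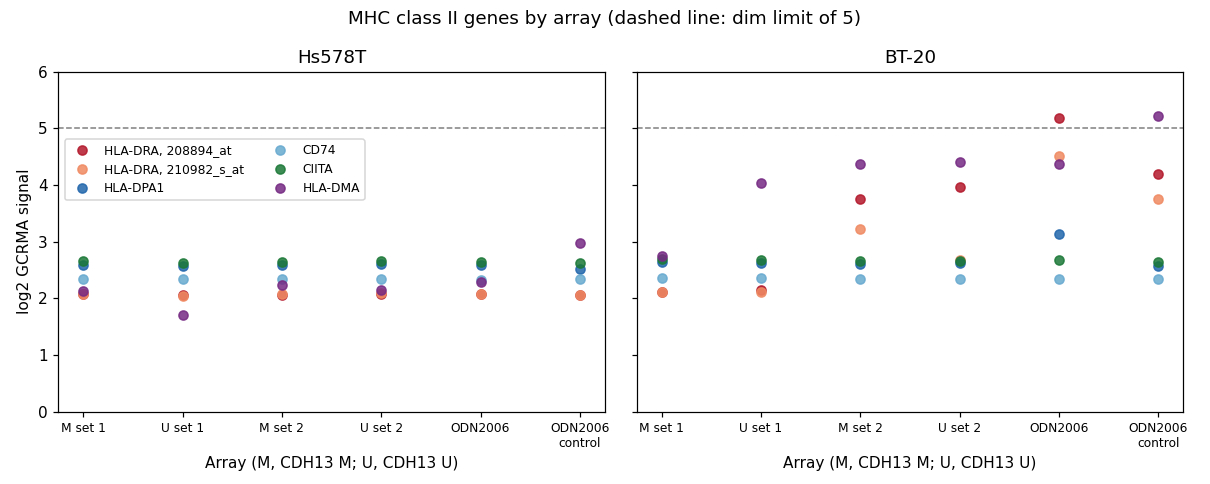
Log2 GCRMA signal (y axis) of both HLA-DRA probe sets, HLA-DPA1, CD74, CIITA and HLA-DMA in the 6 Hs578T arrays (left) and the 6 BT-20 arrays (right), with a dashed line at the dim limit of 5. In its chosen probe set, HLA-DRA lies at 2.05 to 2.08 in Hs578T, and in BT-20 at 2.11 and 2.16 in set 1 and at 3.75 to 5.18 in the other arrays. In its second probe set the other BT-20 arrays lie lower, at 2.68 to 4.51.

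Several related lists were counted between the lines. Of 6 class I heavy chains tested, 5 were higher in Hs578T, none was lower and 1 was not called (median log2 change 1.45). HLA-B was higher by 2.22 (SE 0.097, adjusted p = 2e-06 in limma), HLA-F by 2.04 (SE 0.19), HLA-G by 1.52 (SE 0.094) and HLA-C by 1.38 (SE 0.11). HLA-B lay between 12.33 and 12.67 in Hs578T, against 10.18 and 10.46 as its lowest and highest values in BT-20. All 4 are read by x_at probe sets, so the signal of one heavy chain may include that of another. Of 10 genes of peptide loading and trimming, 5 were higher, 1 was lower and 4 were not called (median 0.37, and 0.29 with values under 5 raised to 5). ERAP2, which trims peptides in the endoplasmic reticulum, was between 9.84 and 10.55 in Hs578T and dim in BT-20, at 3.11 to 3.47. It passed the filter through Hs578T alone, so its change is a lower bound, at least 5.18 on the log2 scale with values under 5 raised to 5. Raising makes all BT-20 values of ERAP2 equal, so the p of that setting is left out. SEC61A1, a channel of the endoplasmic reticulum, was higher by 1.49 (SE 0.11) and ERAP1, the second trimming peptidase, by 1.45 (SE 0.29).

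Proteasome genes pointed the other way. Of 9 tested genes of the list with PSMB10, PSME1 and other proteasome genes, 7 were lower in Hs578T, none was higher and 2 were not called (median -0.39). PSMB10, the third catalytic subunit of the immunoproteasome (MECL-1), measured 7.95 and 7.59 with CDH13 M, 8.09 and 7.68 with CDH13 U, 7.45 with ODN2006 and 7.51 with its control in Hs578T. In BT-20 it lay between 9.39 and 9.87. Its log2 change was -1.77 (SE 0.17). The proteasome subunits PSMB7 (-0.91, SE 0.093) and PSMA1 (-0.81, SE 0.085) were lower as well. Of the 3 inducible catalytic subunits, PSMB9 was therefore higher and PSMB8 and PSMB10 were lower in Hs578T.

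Among transcription factors of MHC genes, 3 were higher, 4 were lower and 3 were not called (median -0.11, 10 tested). RFX5 (1.30, SE 0.12) was higher, whereas RFXANK (-1.12, SE 0.097), its partner in the RFX complex that binds MHC promoters, was lower. NFYA (0.73, SE 0.13) was higher and NFYB (-1.07, SE 0.17) lower, both subunits of the CCAAT-binding factor NF-Y. NLRC5, the class I counterpart of CIITA, named here after its values were seen, read 3.70 to 5.24 in Hs578T and 2.48 to 2.83 in BT-20 and was too dim to test. Of 9 tested genes of a list of interferon receptors, kinases and the inhibitors SOCS1 and SOCS3, 4 were higher, 1 was lower and 4 were not called. Both SOCS genes were among those not called. IFNGR2 (2.11, SE 0.17) and IFNGR1 (1.21, SE 0.18), the chains of the interferon gamma receptor, were both higher in Hs578T (0.67 for IFNGR1 over all 12 arrays). Of 18 tested interferon-stimulated genes, 11 were higher, 3 were lower and 4 were not called. Of these 18, 2 were dim in every CDH13 array of Hs578T and 5 in every CDH13 array of BT-20, so they passed the filter through the other line alone. The median of the list was 1.00, and 0.69 with values under 5 raised to 5. EPSTI1, IFI6 and IDO1, an enzyme that breaks down tryptophan, were dim in BT-20. IDO1 was also dim in both ODN arrays of Hs578T, as given below. Over the CDH13 arrays, with values under 5 raised to 5, EPSTI1, IFI6 and IDO1 were higher in Hs578T by at least 1.75, 0.99 and 1.95. IFITM1, a membrane protein that restricts viruses, was dim in the CDH13 arrays of Hs578T, with a log2 change of -5.44 in the same setting, which is a bound on how much lower it was. Of 10 tested ligands of natural killer and T cells, 4 were higher and 5 were lower, with MICB (-2.37, SE 0.19) and ICAM1 (-2.59, SE 0.22) among the lower ones and MICA (0.95, SE 0.14) among the higher ones. Of 5 tested genes of class II processing, 4 were higher, the proteases CTSB by 3.89 (SE 0.11) and CTSL by 2.27 (SE 0.11) among them. MARCHF8, which is not a protease, was also among the higher ones (0.50, SE 0.18, adjusted p = 0.042 in limma). That change is smaller than the 0.59 that housekeeping centring takes off every gene. The protease CTSD was lower (-0.98, SE 0.23). Each gene named as higher or lower in these lists had an adjusted p under 0.05 in limma, beside a share of 74.6% of all genes.

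The question of the series was which genes respond differently to methylated and unmethylated DNA. For the 6 tested genes no difference passed the threshold. In Hs578T 0% of 10410 genes were called, with 680 at an unadjusted p under 0.05, and in BT-20 0% were called, with 174 at that limit. HLA-E had the smallest p in Hs578T: its CDH13 M arrays, at 10.53 and 10.46, lay below its CDH13 U arrays, at 10.90 and 10.69, with a log2 change of -0.30 (SE 0.13, adjusted p = 0.75 in limma). In BT-20, HLA-E measured 10.86 and 10.82 with CDH13 M and 10.69 and 10.82 with CDH13 U. The difference between the lines in this change was -0.39 (SE 0.19, adjusted p = 1.00), and 0% of genes were called in that test, with 258 at an unadjusted p under 0.05. The second HLA-E probe set gave -0.37 (SE 0.14, adjusted p = 0.70) in Hs578T, and the third gave -0.11 (SE 0.13, adjusted p = 0.96).

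PSMB9 and PSMB8 had the most negative changes over both lines. PSMB9 changed by -0.28 (SE 0.13, adjusted p = 0.94 in limma), with the CDH13 M array below the CDH13 U array of its set in 4 of 4 pairs. PSMB8 changed by -0.22 (SE 0.12, adjusted p = 0.94), also lower in 4 of 4 pairs. PSMB9 and PSMB8 were picked for their low changes, and the share of all genes lower in 4 of 4 pairs was not counted. Over both lines 0% of genes were called, with 543 at an unadjusted p under 0.05. Within BT-20 alone the changes were -0.35 (SE 0.18) for PSMB9 and -0.25 (SE 0.16) for PSMB8. TAP1, whose start is next to that of PSMB9, changed by 0.13 over both lines (SE 0.19). The SEs within a line lay between 0.12 and 0.27, so changes of that size were not detectable with 2 arrays a group.

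For ODN2006 against its control, 1 of 10543 genes was called (0.00948%), with 490 at an unadjusted p under 0.05, and none of the 6 genes was called. Each line had 1 array per oligonucleotide, so the spread came from the CDH13 groups and the lone arrays were assumed to vary like them. The 6 log2 changes lay between -0.12 and 0.0010 (SE 0.12 to 0.27), with PSMB8 lowest, and the smallest unadjusted p was 0.49. By line, TAP1 with ODN2006 minus control was -0.18 in Hs578T and 0.18 in BT-20. Of the dim genes, HLA-DPA1 was called when the filter on dim genes was dropped (log2 change 0.31, SE 0.026, adjusted p = 0.020 in limma). That value rested on the BT-20 ODN2006 array at 3.14, against 2.58 with the control, whereas Hs578T read 2.58 with ODN2006 and 2.52 with the control, all under the dim limit.

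The single-stranded oligonucleotides were also set against the CDH13 double strands of set 2. No set number is given for the ODN arrays, so the culture set and the kind of oligonucleotide cannot be told apart. In Hs578T 9.03% of 10375 genes were called (937 genes, and 50 to 1510 with 1 of the 8 arrays left out, fewest without ODN2006 and most without CDH13 U of Hs578T), and none of the 6 genes was, with the largest change in TAP2 at 0.26 (SE 0.11, adjusted p = 0.17 in limma). TAP2 read 8.55 with ODN2006 and 8.55 with its control, against 8.27 with CDH13 M and 8.32 with CDH13 U of set 2 and 8.36 and 8.60 with the same double strands of set 1. HLA-E changed by 0.18 (SE 0.12, adjusted p = 0.34) in the chosen probe set and by 0.61 (SE 0.14, adjusted p = 0.046) in the second, and by 0.0042 (SE 0.12) in the third. In BT-20 0% of genes were called, with 534 at an unadjusted p under 0.05, and the 6 genes changed by -0.18 to 0.051. In the test of the difference between the lines 0.27% of genes were called and none of the 6.

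**Figure D4:**
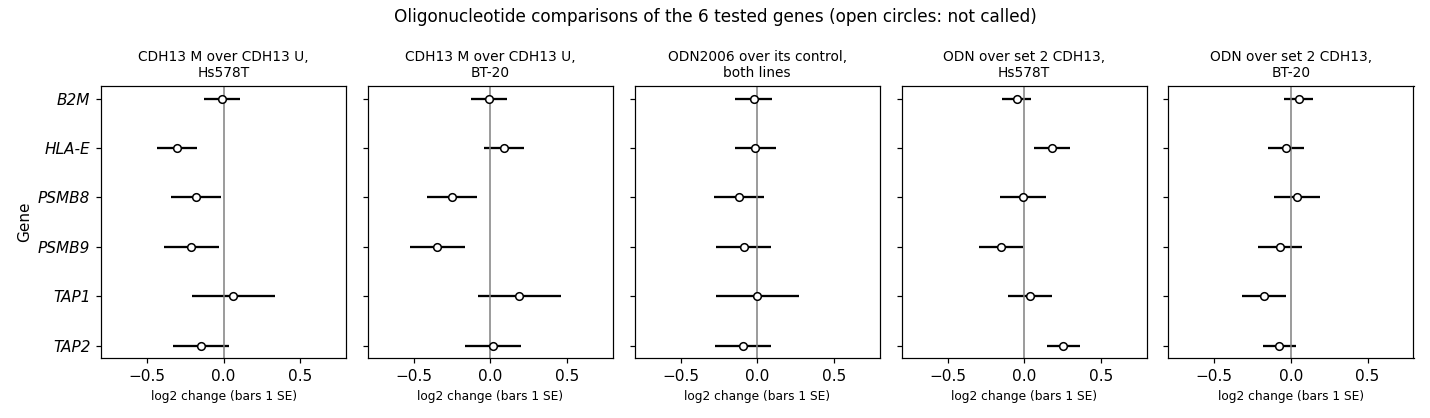
Log2 change (x axis, bars 1 SE from limma) of the 6 tested genes (y axis) in 5 oligonucleotide comparisons, methylated over unmethylated CDH13 in each line, ODN2006 over its control over both lines, and the ODN arrays over the CDH13 arrays of set 2 in each line. Every circle is open, since no gene had an adjusted p under 0.05, and the changes lie between -0.35 and 0.26.

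In that Hs578T comparison, 8 of 75 genes tested in the 8 related lists were called (10.7%), close to the 9.03% of all genes. TAPBPL, a peptide editor of class I related to tapasin, read 6.12 with ODN2006 and 5.94 with its control, against 5.10 and 5.21 with CDH13 M and CDH13 U of set 2 (log2 change 0.87, SE 0.11, adjusted p = 0.013 in limma). Its set 1 arrays read 5.13 and 5.11, so both sets lay below the ODN arrays. IDO1 read 2.44 with ODN2006 and 3.75 with its control, against 6.44 and 6.45 with CDH13 M and CDH13 U of set 2 and 7.46 and 7.46 in set 1. Both ODN values are dim, so the drop is only bounded. With values under 5 raised to 5, the log2 change of IDO1 was -1.44. Raising makes both ODN values equal, so the p of that setting is left out (adjusted p = 0.0097 in limma without raising). IFITM1 read 6.14 and 5.69 with the ODN, against 4.19 and 4.17 with the double strands of set 2 and 3.33 and 4.06 in set 1. Here the values with the double strands are dim, and IFITM1 was higher by at least 0.92 with values under 5 raised to 5. The adjusted p of IFITM1 without raising was 0.0071 in limma. IDO1 and IFITM1, both interferon-stimulated genes, thus moved in opposite directions. The other 5 (CALR, PSMD1, NFYB, IRF9 and RFXAP) lost the call in 5 to 11 of 16 alternatives, and TAPBPL lost it without the Hs578T ODN2006 array (adjusted p = 0.063). For none of TAPBPL, IDO1 and IFITM1 did the test of the difference between the lines pass the threshold (adjusted p = 0.10 for TAPBPL, 0.071 for IDO1 and 0.080 for IFITM1).

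Within a line, the 6 genes did not rise and fall as a block. With each line's mean taken off, TAP1 and TAP2 had a correlation of 0.67 over the 12 arrays and B2M and PSMB8 one of 0.60, whereas TAP1 and PSMB9 had -0.60 and TAP2 and PSMB9 -0.44. TAP1 was lower in set 2 than in set 1 in all 4 comparisons, by 0.18 and 0.55 in Hs578T (CDH13 M, CDH13 U) and by 0.50 and 0.46 in BT-20, and PSMB9 was higher in set 2 in all 4, by 0.08 and 0.29 in Hs578T and by 0.40 and 0.08 in BT-20. The CDH13 M and CDH13 U arrays of a set deviated together over all genes, so these 4 comparisons are not independent. The share of all genes with the same sign in all 4 was not counted. The genes whose deviations were most like the mean deviation of the 6 genes, among 10543 genes searched, were PWWP2B (r = 0.92), ELF4 (0.90), CDC37 (0.89), ARSB (0.89) and KRT80 (0.88). That mean deviation spanned only -0.10 to 0.17 over the 12 arrays, and all the values come from the same arrays, so these correlations are a description.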

How the data were processed

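RNA of 12 cultures was hybridised to Affymetrix HG-U133 Plus 2.0 arrays. The deposited values are log2 signals that the authors made from the scans with GCRMA, per the labels, which fits background from probe sequence and normalises the arrays together, in R 2.4 according to the submitters' processing notes. They were used as deposited. Scan files were not analysed here, so detection calls per probe set are not given.

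Of 54675 probe sets, 41097 name 1 gene, 1801 several and 11777 none. Each of 19775 genes was read from its single-gene probe set with the highest mean. Genes at 5 or above in at least 2 arrays of a fit were tested in limma 3.58.1 (R 4.3.3, lmFit and eBayes, one mean per line and oligonucleotide) with Benjamini-Hochberg adjustment over all genes tested and a threshold of 0.05. The lines were compared over the CDH13 arrays. The code was tested on simulated data. The 10 genes and the 13 lists (161 genes, 150 matched) were chosen with earlier results of these data known. Named list genes are up to 4 with the smallest p per list. A few others, such as MARCHF8, SOCS1 and SOCS3, were named to describe their lists, and some were chosen after their values were seen, as stated above. Likeness is Pearson's r of deviations from the line means. Promoters and positions are from RefSeq (GRCh38.p14). Alternatives were quantile normalization, housekeeping centring, no filter, values under 5 raised to 5, trend and robust eBayes, the mean of all probe sets, all 12 arrays, a replicate block and leaving out each array. Centring on housekeeping deviations and the use of single other probe sets were added after seeing the data. The number of arrays limits the precision.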

Additional observations from a re-analysis of the deposited data

How the results depend on the processing

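Between the lines, TAP1, PSMB9 and PSMB8 kept their direction in every alternative run, and lost the call only under housekeeping centring (TAP1, PSMB9), as did NFYA (0.14) and MICA (0.36). Of 106 recomputed values of the 6 genes, 94 kept sign and call. The sign turned under housekeeping centring for B2M (-0.40) and TAP2 (-0.44), over the mean of all probe sets for TAP2 (-0.40) and HLA-E (0.15), and in the other HLA-E probe sets (0.25 in the second, 0.36 in the third). Leaving out 1 array kept 3 of the 6 called and 7235 to 7528 genes. Housekeeping centring moved the share of higher calls to 25.1% between the lines, against 46.1%, and for the ODN arrays over set 2 in Hs578T to 86.3%, against 42.9% (70.8% with housekeeping deviations).

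Of 824 values in the 8 oligonucleotide comparisons, 729 kept sign and call, 94 changed sign without a call and 1 was newly called (HLA-E in its second probe set, 1 of the 6 called). The difference between lines in methylated over unmethylated CDH13 turned positive for TAP2 under housekeeping centring (0.17), the mean of probe sets (0.057) and without BT-20 CDH13 M of set 1 (0.023, with -0.35 as the lowest value with an array left out). ODN2006 over control turned positive for PSMB8 without either Hs578T ODN array (0.0034, lowest -0.24) and for TAP2 without either BT-20 ODN array (0.0026, lowest -0.19). The ODN arrays over set 2 in BT-20 turned positive for TAP2 without ODN2006 (0.016, lowest -0.17). Genes called for ODN2006 numbered 150 with no filter (1 of the 10 genes, HLA-DPA1), 0 with housekeeping centring, 0 with trend and robust, and 0 to 2 with an array left out. For the ODN arrays over set 2 in Hs578T they numbered 1444 with trend and robust, 1570 over all 12 arrays, 449 with housekeeping deviations and 50 to 1510 with an array left out. In BT-20 they numbered 4 with no filter, 7 over all 12 arrays and 0 to 4 with an array left out. For the difference between the lines they numbered 67 with no filter, 63 with housekeeping centring, 119 over all 12 arrays and 1 to 123 with an array left out. Beyond the settings' own construction, the cause was not tested.

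CDH13 M and CDH13 U arrays of one set deviated together (r = 0.60 in Hs578T and 0.60 in BT-20, 10410 genes), but with only 2 pairs a line and no label on what a set shares. With a replicate block, 3 of the 6 genes and 8431 genes were called between the lines, 0 in the CDH13 comparisons and 1 for ODN2006, and no call of the 6 genes changed. The ODN arrays carry no set number, so their comparison with set 2 had no such fit.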
